A study of Mus musculus with 6 samples.

Results

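Keratins are the intermediate filament proteins of epithelial cells, and the genes described here are the 53 whose name is Krt followed by a number and at most 1 letter, out of 26644 genes in the deposited tables. A keratin filament is built from type I and type II partners in equal amounts, and each epithelial layer uses its own pair, and keratin genes are therefore used as markers of epithelial compartments. In skin, Krt5 and Krt14 mark the basal layer, Krt1 and Krt10 the layers above it, Krt6a, Krt6b, Krt16 and Krt17 are switched on in keratinocytes at wound edges, and the hair follicle adds its own sets for the inner root sheath, the companion layer and the hair shaft.

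The libraries came from mouse skin during wound healing, sampled at the early, middle and late stage, for which the labels name no day. At each stage, 1 library came from a negative control that received no treatment and 1 from skin treated with C-PC, the blue pigment protein C-phycocyanin of the cyanobacterium Spirulina. The sources used here do not give the strain, age, sex, genotype or wound model, nor how many animals stand behind a library. With 1 library in each of the 6 groups, no difference between treatment and control within a stage has a replicate check, and the intervals given with such values cover counting error alone.

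Of the 53 members, 26 were listed at the early stage, 44 at the middle stage, 52 at the late stage and 25 at all 3. All 53 have the coordinates of the GENCODE M21 annotation of GRCm38, in which 52 are protein-coding and Krt74 is a transcribed unitary pseudogene. The 26 type II genes lie on chromosome 15, between positions 101347444 and 102004482. Of the 27 type I genes, 26 lie on chromosome 11, between positions 99232761 and 100269871, and Krt18 lies beside the type II genes on chromosome 15.

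Each library held 15863637 to 18028674 reads on genes, so 3 reads, the limit that a count of 0 allows, correspond to 0.166 to 0.189 CPM, the reads scaled to each library's total on genes. The libraries did not all look like skin. The middle C-PC and late control libraries had 103771 and 100819 CPM over 6 skeletal muscle genes, against 1457 to 9090 CPM in the other 4, and their fibroblast genes summed to 2626 and 2180 CPM against 10611 to 65115 CPM elsewhere. The 10 keratinocyte genes chosen from outside the keratins summed to 149 CPM in early control, 164 in early C-PC, 1003 in middle control, 103 in middle C-PC, 144 in late control and 8481 in late C-PC. Itga6, which other cell types also make, gave most of that sum in early control (120 CPM), early C-PC (131), middle C-PC (74.1) and late control (93.2). In early C-PC, middle C-PC and late control, 2 of the 10 genes had 3 or fewer reads, and in early control 1 had. The basal keratin Krt5 had 0 reads in early control, middle C-PC and late control, and 23 in early C-PC. Each contrast between treatments at the middle and late stages thus sets a library with keratinocyte markers beside a muscle-rich one with few, and the part this plays in the keratin values was not tested. In bulk tissue, fewer cells of a type and less RNA per cell cannot be told apart.

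The summed keratin reads fell into 3 levels. The early libraries held 570 reads (control) and 545 reads (C-PC), or 31.6 and 32.4 CPM. The middle control library held 49664 reads, which is 0.313% of its reads (95% Clopper-Pearson interval 0.310 to 0.316), while middle C-PC held 325. The late C-PC library held 792505 keratin reads, 4.65% of all its reads (4.64 to 4.66), and late control 280. Keratin RNA was thus abundant in late C-PC, moderate in middle control and sparse in the other 4 libraries. Late C-PC had the highest CPM for 44 of the 53 genes, middle control for 8 (Krt1, Krt6a, Krt6b, Krt9, Krt10, Krt14, Krt16 and Krt24) and middle C-PC for Krt222.

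**Figure D1:**
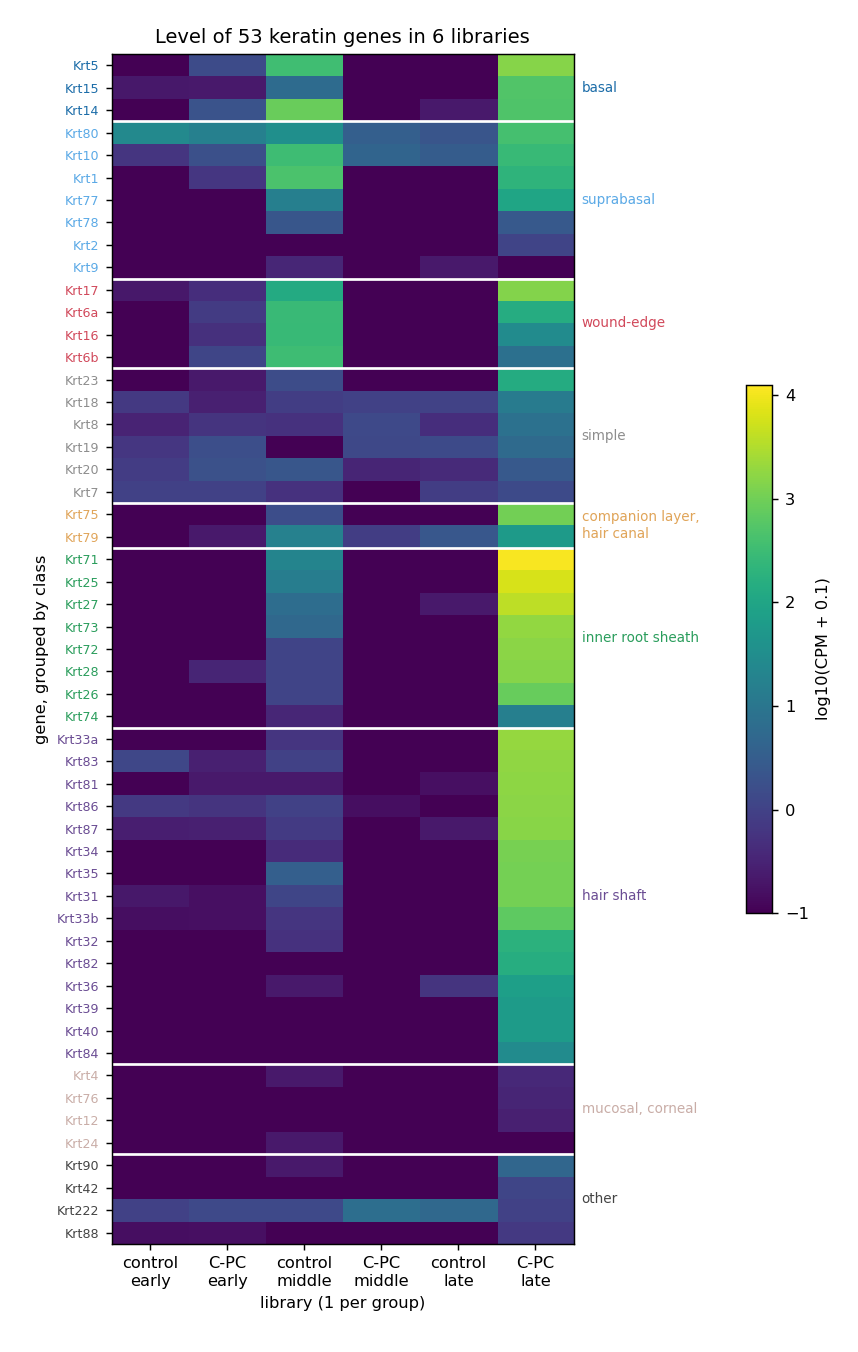
Level of each of the 53 keratin genes (rows, grouped by class) in each of the 6 libraries (columns, 1 library per group), as log10 of CPM + 0.1. Basal and wound-edge rows are brightest in middle control and late C-PC, Krt80 also shows in the early libraries, and each inner root sheath and hair shaft row is brightest in late C-PC.

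The makeup of the keratin reads differed as much as their amount. In middle control, 38.4% of keratin reads (38.0 to 38.8) were basal, 32.4% (32.0 to 32.9) wound-edge and 26.5% (26.1 to 26.9) suprabasal, with 1.58% from the inner root sheath class and 0.282% from the hair shaft class. In late C-PC, 57.9% (57.8 to 58.0) were inner root sheath and 28.4% (28.3 to 28.5) hair shaft keratins, and basal, wound-edge, companion layer and suprabasal keratins made up 5.33%, 3.49%, 2.40% and 2.09%. Krt17, which is also a follicle keratin, gave 24543 of the 27621 wound-edge reads there, and without it the wound-edge share was 0.388%. Keratins of surface epidermis and wound edges thus led in middle control, and keratins of the hair follicle led in late C-PC. In early control, 80.4% of the few keratin reads came from the suprabasal class, nearly all from Krt80, and in middle C-PC and late control Krt222 was the most frequent keratin, with 36.6% and 30.4%.

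**Figure D2:**
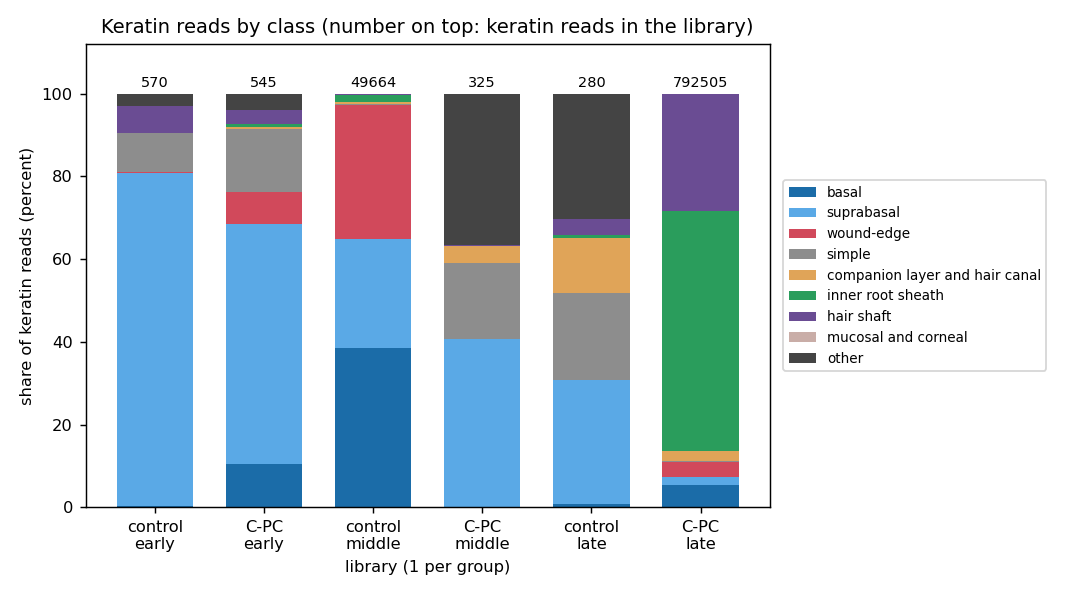
Share of keratin reads taken by each class (stacked bars, percent) in each library, with the number of keratin reads on top. The 325 and 280 reads of middle C-PC and late control hold 0 and 2 basal reads, no wound-edge reads and, among follicle keratins, mainly the 13 and 37 reads of Krt79, and inner root sheath and hair shaft keratins fill most of the late C-PC bar.

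Reads of single genes are given below in the order early control, early C-PC, middle control, middle C-PC, late control and late C-PC. The basal keratins come first. Krt14 (chr11:100203162-100207548), the type I keratin of the basal layer, had 0, 32, 13548, 0, 2 and 8477 reads. Krt5 (chr15:101707070-101712898), its type II partner, had 0, 23, 5421, 0, 0 and 25097 reads. Both were frequent in middle control and late C-PC, present at low counts in early C-PC, and at or near 0 in the remaining libraries. Krt15, a basal keratin also known from the hair follicle bulge, where follicle stem cells sit, had 2, 2, 96, 0, 0 and 8701 reads and was by far highest in late C-PC. The summed level of the basal class was 0.111, 3.39, 1202, 0, 0.124 and 2482 CPM.

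Among the suprabasal keratins, Krt1, the type II keratin of differentiating epidermis, had 0, 9, 7169, 0, 0 and 3487 reads. Its partner Krt10 had 9, 28, 5153, 73, 48 and 4745 reads. Krt10 kept some reads where Krt1 was at 0, in middle C-PC and late control. The antisense gene Gm11940, which overlaps Krt10 by 558 bases, had at most 3 reads in any library. That count cannot show whether some of its reads were counted to Krt10. Krt77, another type II keratin of differentiating epidermis, had 255 reads in middle control, 1658 in late C-PC and 0 elsewhere. Krt80, a type II keratin linked to desmosomes, behaved differently from the rest of its class, with 449, 279, 540, 59, 34 and 6594 reads. It made up 78.8% of keratin reads in early control and 51.2% in early C-PC, where Krt1 had at most 9 reads and Krt10 at most 28. With 6393 exon bases, Krt80 is longer than most keratin genes, which raises its share of reads. Per kilobase of exon, the whole suprabasal class made up 58.8% in early control and 35.0% in early C-PC, against 80.4% and 58.0% by reads. The antisense gene Gm35853 overlaps Krt80 along all of its 22719 bases, and its own reads were 37, 22, 45, 6, 8 and 21. The counting is not stated to use strand, so reads of Krt80 and Gm35853 cannot be told apart where they overlap, nor can those of Krt10 and Gm11940. The scarcer members were Krt78, with 35 reads in middle control and 43 in late C-PC, Krt2, with 17 reads in late C-PC alone, and Krt9, the keratin of palms and soles, with at most 4.

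The wound-edge keratins differed among themselves in which of the keratin-rich libraries held most of their reads. Krt6a had 0, 11, 4455, 0, 0 and 2473 reads. Krt6b had 0, 18, 5203, 0, 0 and 126 reads. Krt16, their type I partner, had 0, 7, 4356, 0, 0 and 479 reads. These 3 were highest in middle control. Krt17, which is induced by wounding and is also a regular keratin of the hair follicle, had 2, 6, 2096, 0, 0 and 24543 reads and was highest in late C-PC. All 4 were at 0 in middle C-PC and late control. Krt6a and Krt6b are close copies: 40.3% of the 50-base stretches of Krt6a transcripts also occur in Krt6b, and 13.9% of those of Krt14 occur in another gene, so reads may be split or lost between such genes.

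**Figure D3:**
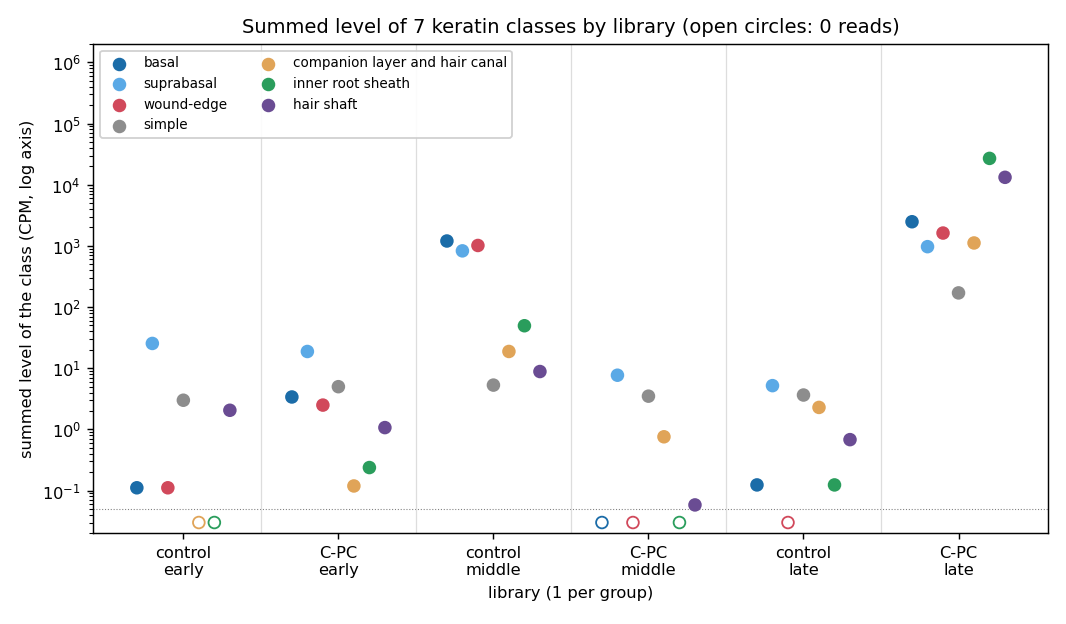
Summed level (CPM, log axis) of 7 keratin classes in each library, with 1 point per class and library and open circles for classes with 0 reads. Basal, suprabasal and wound-edge points lie between 829 and 1202 CPM in middle control, and the inner root sheath and hair shaft points reach 26944 and 13212 CPM in late C-PC.

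The inner root sheath is the sleeve of cells that surrounds and shapes a growing hair. Its type II keratins are Krt71 to Krt74 and its type I keratins Krt25 to Krt28, and mouse mutations of Krt71 and Krt25 give curly coats. Krt71 (chr15:101733949-101743109) had 0, 0, 322, 0, 0 and 191153 reads and was the most frequent keratin of the series, at 11222 CPM in late C-PC. Krt25 (chr11:99315516-99322951) had 0, 0, 226, 0, 0 and 103691 reads, and Krt27 had 0, 0, 103, 0, 2 and 65422. All 8 members had their highest count in late C-PC. In middle control the 8 genes together held 785 reads, against 458965 in late C-PC. The other members went from 82 reads in middle control to 31363 in late C-PC for Krt73, from 16 to 27969 for Krt72, from 16 to 24897 for Krt28, from 16 to 14207 for Krt26 and from 4 to 263 for the pseudogene Krt74. In the other 4 libraries these 5 genes had 0 reads, except 4 reads of Krt28 in early C-PC. The order of the levels per kilobase of exon in late C-PC was Krt71 with 5134 CPM per kilobase, Krt25 with 3061, Krt27 with 2478, Krt28 with 900.01, Krt73 with 849, Krt72 with 823, Krt26 with 227 and Krt74 with 9.37.

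Because these genes moved together, the bases around their transcription starts are shown. RefSeq start windows of GRCm38.p6 (250 bases before to 50 after the start) were given for 35 members, and 33 of them begin within 150 bases of the 5′ end of the gene as listed in the tables. The stretches below run from 60 bases before to 20 bases from the start, on the minus strand, which carries each of these genes. Krt71 covers chr15:101743078-101743157, Krt25 chr11:99322932-99323011, Krt28 chr11:99374884-99374963, Krt73 chr15:101802341-101802420 and Krt27 chr11:99351099-99351178. The suprabasal Krt10 (chr11:99389345-99389424) and the basal Krt5 (chr15:101712886-101712965) are shown for comparison. Capitals mark TATAAA, the core of the TATA box, which places the start of transcription.
Krt71: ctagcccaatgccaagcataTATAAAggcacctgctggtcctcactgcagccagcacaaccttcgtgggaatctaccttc
Krt25: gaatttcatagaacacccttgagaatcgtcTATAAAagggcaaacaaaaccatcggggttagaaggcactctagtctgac
Krt28: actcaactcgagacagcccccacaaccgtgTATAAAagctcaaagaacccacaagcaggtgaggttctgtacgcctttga
Krt73: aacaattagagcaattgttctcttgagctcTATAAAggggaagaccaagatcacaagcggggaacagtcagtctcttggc
Krt27: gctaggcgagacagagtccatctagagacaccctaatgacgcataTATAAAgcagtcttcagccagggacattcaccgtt
Krt10: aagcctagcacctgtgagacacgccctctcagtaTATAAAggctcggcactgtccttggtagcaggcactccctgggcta
Krt5: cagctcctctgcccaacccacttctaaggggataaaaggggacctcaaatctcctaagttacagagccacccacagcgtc

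TATAAA occurred on either strand in 7 of 7 inner root sheath windows and 6 of 9 hair shaft windows, against 13.6% of 32851 windows of all genes. Over all keratins, TATAAA occurred on either strand in 19 of 33 windows (57.6%). These included 2 of 3 mucosal and corneal, 2 of 4 simple, 1 of 2 other and 1 of 5 suprabasal windows, but 0 of 1 basal and 0 of 2 companion layer and hair canal windows. The motif was thus not particular to the follicle classes. With the RefSeq start as position 0, TATAAA began at -30 in Krt25, Krt28 and Krt73, at -40 in Krt71 and at -15 in Krt27. The only match in Krt72, an inner root sheath gene not shown above, and in Krt84 of the hair shaft lay on the opposite strand. On the gene's own strand and between positions -35 and -20, it began in 12 of 33 keratin windows (36.4%), against 1.84% of all windows. By class, these were 4 of 7 inner root sheath, 4 of 9 hair shaft, 2 of 3 mucosal and corneal, 1 of 4 simple and 1 of 5 suprabasal windows. CTTTGA, the core of LEF1 binding motifs, occurred on either strand in 5 of 9 hair shaft windows and 1 of 7 inner root sheath windows, against 16% of all windows. TGANTCA, the AP-1 motif, occurred in 0 of 33 keratin windows and 7.81% of all windows, and GCCNNNGGC, an AP-2 motif, in 6 of 33 and 16.6%. A match in these letters is a description of the window and does not show a bound site.

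The hair shaft keratins are the cysteine-rich keratins of the cortex and cuticle of the hair itself. All 15 listed members had reads in late C-PC, from 485 for Krt84 to 34016 for Krt33a (chr11, 1997 CPM). The class as drawn up also held Krt85, but no gene was listed under that name, nor does GENCODE M21 use it. In middle control they had at most 53 reads (Krt35, a keratin of the lower hair cortex), and 4 of them (Krt39, Krt40, Krt82 and Krt84) had 0. In late C-PC, Krt83 had 30870 reads, Krt81 28783, Krt86 27574 and Krt87 26193, all type II. Among the type I members, Krt34 had 19274, Krt35 18439, Krt31 18386 and Krt33b 11787. The hair cuticle keratins were scarcer, with 3256 reads for Krt32, 2600 for Krt82, 1069 for Krt39 and 1049 for Krt40, and Krt36 had 1272. Outside late C-PC and middle control, only Krt83 with 20 reads and Krt86 with 11 reads in early control reached 10 reads. Several of these genes are near copies, and the share of 50-base stretches found in another gene was 43.3% in Krt86, 37.7% in Krt81, 36.9% in Krt87 and 33.1% in Krt34, so the split of reads among Krt81, Krt83, Krt86 and Krt87 and among Krt31, Krt33a, Krt33b and Krt34 is uncertain.

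A further pair belongs to the follicle's outer parts. Krt75, the keratin of the companion layer between the inner and outer root sheath, had 0, 0, 24, 0, 0 and 17997 reads. Krt79, a keratin of the hair canal and sebaceous duct, had 0, 2, 274, 13, 37 and 1014 reads. Krt75 resembled the inner root sheath keratins in having nearly all of its reads in late C-PC, whereas Krt79 had reads in 5 of the 6 libraries.

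The keratins of simple epithelia were scarce throughout. Krt18 had 11, 3, 12, 15, 15 and 224 reads, and its partner Krt8 had 4, 8, 7, 21, 6 and 136. Krt19, found in simple epithelia and in the hair follicle bulge, had 10, 27, 0, 20, 21 and 97 reads. Krt20, a keratin of gut epithelium and of Merkel cells, the touch receptors of skin, had 13, 29, 35, 4, 5 and 43. Krt7, a keratin of ducts, had 16, 15, 7, 0, 12 and 22. Of these 5 genes, Krt18, Krt8 and Krt19 in middle C-PC and Krt18, Krt19 and Krt7 in late control reached 10 reads, which beyond them only Krt10, Krt79, Krt80 and Krt222 did in either library. Krt23, which was grouped with the simple keratins, had 0, 2, 23, 0, 0 and 2380 reads and thus followed the follicle keratins in these libraries.

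Krt222, a keratin-like gene at the edge of the type I cluster, ran the other way, with 16, 21, 20, 119, 85 and 15 reads. Its highest counts were in the libraries rich in muscle genes. Krt90, Krt42 and Krt88 had 79, 18 and 10 reads in late C-PC and at most 2 elsewhere. The mucosal and corneal keratins Krt4, Krt12, Krt24 and Krt76 had at most 5 reads in any library, and Krt13 was not listed.

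The first comparison asks how C-PC skin differed from untreated skin at the early stage. At very low levels, 5 keratins of the epidermis (Krt5, Krt14, Krt6a, Krt6b and Krt10) were higher with C-PC, while Krt80, the most frequent keratin in both libraries, had 449 reads in control and 279 in C-PC. Krt1, Krt15, Krt16 and Krt17 had too few reads to be compared. A gene was counted as apart when it had at least 10 reads in either library, at least a 2-fold ratio and a 95% counting interval that excluded equality. Of 13 keratins with enough reads, 7 were higher and 1 lower, against 2.92% higher and 6.85% lower among 16589 genes compared. Krt14, Krt5, Krt6b and Krt6a had 0 reads in control, so the lower 95% counting limit of their ratio is given. It was 8.90-fold for Krt14, 6.25-fold for Krt5, 4.78-fold for Krt6b and 2.73-fold for Krt6a, all higher with C-PC. Krt10 was 3.39-fold higher (1.55 to 8.15), Krt19 2.94-fold (1.38 to 6.8) and Krt20 2.43-fold (1.22 to 5.09). The 1 lower gene was Krt83, 6.12-fold (1.82 to 32.2), and Krt80 was 1.48-fold lower (1.27 to 1.72), short of the 2-fold bound. Beside these, 4 of 6 muscle genes were lower with C-PC (9090 CPM in sum in control, 4167 in C-PC), and of 8 keratinocyte genes outside the keratins 0 were higher and 1 was lower. Their part in the keratin values was not tested. The authors' deposited table had 3 of 26 keratins past an adjusted p of 0.05 and 2-fold at this stage, Krt14, Krt5 and Krt6b, all higher with C-PC. None of the 8 genes apart reached 50 reads in either library.

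At the middle stage, the basal, suprabasal, wound-edge and follicle keratins were lower in the C-PC library, and the simple keratins were mixed. Of 32 keratins compared, 28 were lower and 3 higher, against 28.1% lower and 23.6% higher among 17076 genes compared. All 14 members compared of the basal, wound-edge and inner root sheath classes and Krt1, Krt77 and Krt78 were lower, with 0 reads in C-PC. Where a library had 0 reads, the fold given as at least is the lower counting limit of the ratio. Krt14 was at least 2727-fold lower, Krt1 at least 1443-fold, Krt5 at least 1091-fold, Krt6b at least 1047-fold and Krt71 at least 64.5-fold. Krt10 was 52.4-fold lower (41.6 to 67.0), Krt79 15.6-fold (9.0 to 29.8) and Krt80 6.8-fold (5.19 to 9.05). The 3 higher genes were Krt222 with 8.02-fold (4.96 to 13.6), Krt8 with 4.05-fold (1.65 to 11.2) and Krt19 with at least 6.65-fold. The authors' deposited table called 31 of 44 keratins here, 28 lower and 3 higher.

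At the late stage the direction turned. Of 48 keratins compared, C-PC was higher for 46 and lower for 1, against 26.3% higher and 23.1% lower among 17073 genes compared. Krt71 was at least 33672-fold higher, Krt25 at least 18266-fold, Krt33a at least 5992-fold, Krt5 at least 4421-fold and Krt17 at least 4323-fold. These are again lower counting limits, since control had 0 reads of each. Where control held more than a few reads, Krt80 was 126-fold higher (90.1 to 182), Krt10 64.2-fold (48.4 to 87.2), Krt79 17.8-fold (12.8 to 25.4), Krt8 14.7-fold (6.6 to 40.8) and Krt18 9.69-fold (5.76 to 17.6). Krt222 was 8.73-fold lower (5.00 to 16.3), and Krt7 did not pass at 1.19-fold (0.565 to 2.64). The authors' deposited table called 47 of 52, 46 higher and 1 lower. All 28 keratins that C-PC had lower than control at the middle stage, it had higher at the late stage. These contrasts use separate libraries, and in each the keratin-poor library was the one rich in muscle genes.

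Over the stages together, no keratin passed the test for C-PC. The error of that test is how the C-PC difference varies between stages, and 28 keratins turned direction between the middle and late stages. A lack of calls there thus does not show a lack of effect. limma with stage as a block tested 16958 genes, of which 33 were keratins, and called 0 keratins and 0% of all genes at a Benjamini-Hochberg adjusted p of 0.05. At an unadjusted p under 0.05 there were 0 keratins and 143 genes, and edgeR on the recovered reads also called 0 keratins. DESeq2 called 0 keratins and 0.248% of the genes, with 9 keratins at an unadjusted p under 0.05. The smallest p among keratins was that of Krt19, higher with C-PC in 3 of 3 stages, with a log2 difference of 2.18 ± 0.81 (SE, limma adjusted p = 1). The median log2 difference of the tested keratins was 2.04, against 0.02 for all genes, and it was -2.00 without the late pair and 6.14 without the middle pair, so its direction rested on the late pair.

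For stage, with treatment as a covariate, limma called 0 keratins and 0% of 16958 genes in each of the contrasts late against early, late against middle and middle against early. The keratins with an unadjusted p under 0.05 numbered 1, 0 and 0 in these contrasts, edgeR called 0 in each, and DESeq2 called 13, 2 and 15, all higher at the later stage. Among all genes DESeq2 called 4.49%, 0.059% and 0.46% in either direction. The median log2 difference of the 33 tested keratins was 4.73 late against early, 2.24 late against middle and 1.91 middle against early. Krt79 had the smallest p of the keratins late against early, with a log2 difference of 6.31 ± 2.06 (SE, limma adjusted p = 0.75), and it was higher at the late stage in both treatments. The treatments disagreed on the order of the stages, since summed keratin reads were highest at the middle stage in the control libraries and at the late stage in the C-PC libraries.

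The libraries with abundant keratins, middle control and late C-PC, differ in both treatment and stage and share libraries with the contrasts above, so their values are set side by side as a description. After TMM scaling, which assumes that most genes do not differ, 39 of 48 keratins were higher in late C-PC and 4 lower, against 17.3% higher and 24.1% lower among 17592 genes compared. Of the wound-edge keratins, Krt6b was 49.2-fold lower in late C-PC (41.3 to 59.2), Krt16 10.8-fold lower (9.86 to 11.9) and Krt6a 2.15-fold lower (2.04 to 2.26), while Krt17 was 9.82-fold higher (9.39 to 10.3). Scaled by total reads, Krt6a did not reach 2-fold, with a log2 difference of -0.95. The fourth gene lower was Krt1, 2.45-fold (2.35 to 2.55). Krt14 and Krt10 did not reach 2-fold, with log2 differences of -0.93 and -0.37. Krt5 was 3.88-fold higher (3.77 to 4.00), Krt77 5.45-fold (4.78 to 6.25), Krt80 10.2-fold (9.38 to 11.2) and Krt15 76.0-fold (62.2 to 94.0). All 8 inner root sheath and all 15 hair shaft keratins were higher, with 498-fold (446 to 557) for Krt71, 385-fold (338 to 440) for Krt25 and 3566-fold (1810 to 8261) for Krt33a.

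**Figure D4:**
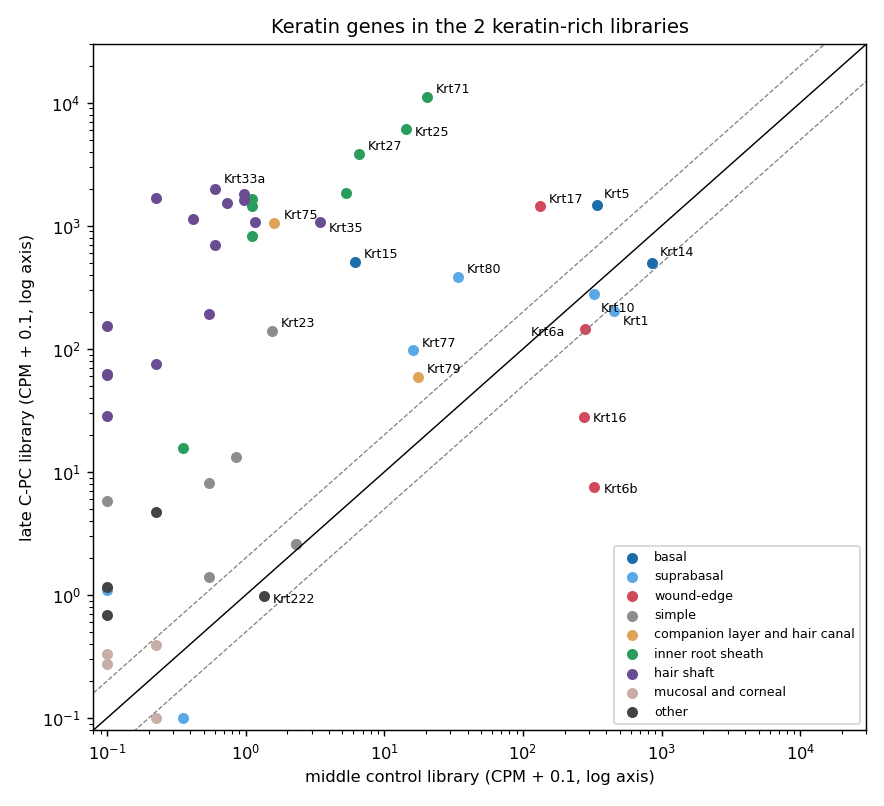
Level of each keratin in middle control (x axis) and late C-PC (y axis), as CPM + 0.1 on log axes, with 1 point per gene coloured by class. The solid line marks equality and the dashed lines 2-fold before TMM scaling, and Krt16 and Krt6b lie far below the lines while inner root sheath and hair shaft genes lie far above.

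Keratin pairs were compared as type I over type II reads per kilobase of exon. Over all members the ratio was 1.68 in middle control and 1.04 in late C-PC. Krt14 over Krt5 was 3.12 (3.03 to 3.22) in middle control and 0.422 (0.412 to 0.433) in late C-PC, so Krt14 exceeded its partner in the former and Krt5 in the latter. Krt10 over Krt1 was 1.50 (1.45 to 1.56) and 2.84 (2.72 to 2.97), but by reads without length Krt1 exceeded Krt10 in middle control, with a ratio of 0.719. Krt16 over Krt6b was 1.20 (1.15 to 1.24) and 5.43 (4.45 to 6.66), and Krt17 over Krt6a 0.733 (0.696 to 0.773) and 15.5 (14.8 to 16.1). Krt16 over Krt6a went the other way, with 1.51 (1.45 to 1.58) in middle control and 0.299 (0.271 to 0.330) in late C-PC. The share of 50-base stretches found in another gene was 57.2% in Krt6a, 50.1% in Krt6b, 37.6% in Krt16 and 4.0% in Krt17. Split or lost reads may thus shift these wound-edge ratios, which their intervals do not cover. The share was also 13.9% in Krt14, 12.2% in Krt5, 10.9% in Krt25, 11.1% in Krt27, 37.7% in Krt81, 22.1% in Krt83 and 17.8% in Krt33a. The same limit applies to the ratios given here for these genes. The follicle pairs varied, with 0.771 (0.648 to 0.917) and 0.596 (0.592 to 0.601) for Krt25 over Krt71 and 1.23 (0.575 to 2.62) and 1.09 (1.07 to 1.11) for Krt28 over Krt72. Krt27 over Krt73 was 1.76 (1.30 to 2.38) and 2.92 (2.88 to 2.96), and Krt35 over Krt81, with 2 reads of Krt81 in middle control, 23.4 (6.18 to 199) and 0.567 (0.556 to 0.577). Within late C-PC, Krt33a over Krt83 was 0.984 (0.969 to 0.999).

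**Figure D5:**
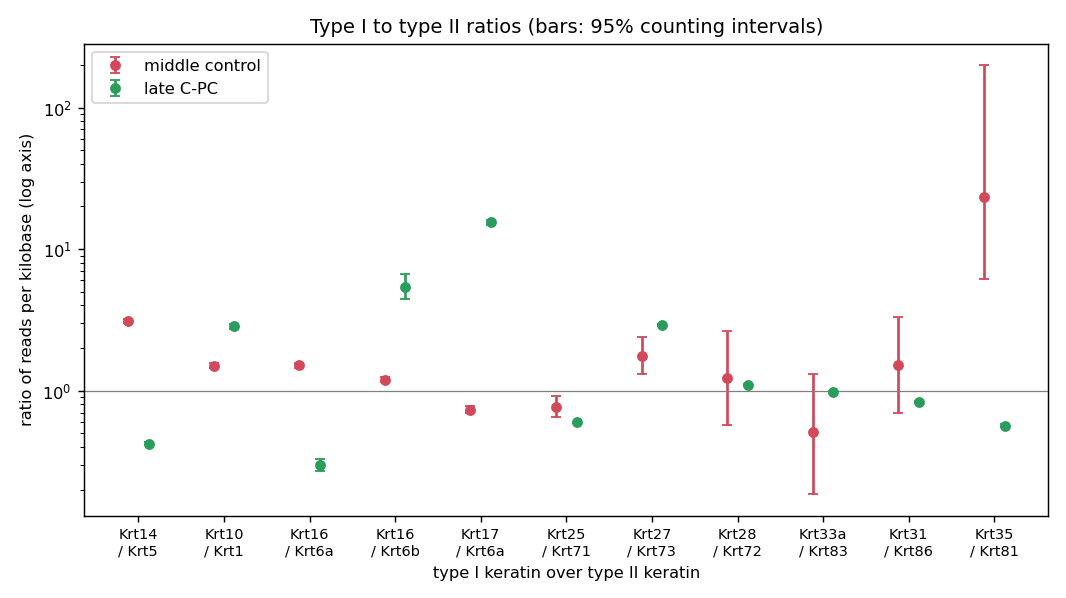
Ratio of reads per kilobase of a type I keratin over a type II keratin (log axis) in middle control and late C-PC, with 95% counting intervals as bars and 1 library per point. The ratio of Krt14 over Krt5 goes from 3.12 to 0.422 and that of Krt17 over Krt6a from 0.733 to 15.5, while the intervals of Krt28 over Krt72 overlap.

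Genes that work with keratins were read from lists of 22 filament partners and 19 listed regulators. The partners are mainly desmosome and hemidesmosome proteins, filament-bundling proteins and envelope proteins. Trp63, a transcription factor, is in both lists. The partners also share Trp63, Sfn, Dsp, Perp, Lor, Itga6 and Itgb4 with the keratinocyte genes above, so these lists are not independent. Of the partners, 1 of 14 compared was higher with C-PC at the early stage. At the middle stage 17 of 21 were lower and 1 higher, and at the late stage 18 of 22 were higher and 2 lower. Over all genes compared the shares were 2.92% higher early, 28.1% lower and 23.6% higher at the middle stage, and 26.3% higher and 23.1% lower late. Dsp, which anchors keratins to desmosomes, was 657-fold lower at the middle stage, with 224 CPM in control and 0.233 in C-PC, and reached 3256 CPM in late C-PC against 0.988 in late control. Flg, which bundles keratins in the outer epidermis, had 51.2 CPM in middle control, 25.8 in late C-PC and 0 reads elsewhere. Tchh, which encodes trichohyalin, a protein that binds keratin filaments in the inner root sheath, had 18637 CPM in late C-PC and at most 23.5 in any other library.

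Of the regulators, 17 of 19 compared were lower with C-PC at the middle stage and 19 of 19 were higher at the late stage, and at the early stage 1 of 9 was higher and 1 lower, beside the same shares over all genes. Hoxc13, a homeobox factor required for hair keratin expression, had 219 CPM in late C-PC and at most 1.0 elsewhere. Foxn1, the factor lost in nude mice, had 208 CPM in late C-PC and at most 0.693 elsewhere, and Dlx3, a homeobox factor of the follicle, had 616 CPM against at most 4.29. Grhl3, a factor of the epidermal barrier, was present in both keratin-rich libraries, with 12.7 CPM in middle control and 51.4 in late C-PC. Melanocyte genes, which in mouse skin are active in growing follicles, summed to 1482 CPM in late C-PC and at most 4.03 elsewhere. Among 11 intermediate filament genes that are not keratins, Des of muscle was 11.5-fold higher and Vim of mesenchyme 5.66-fold lower with C-PC at the middle stage, and Des was 27.1-fold lower with C-PC at the late stage.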

How the data were processed

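RNA from 6 libraries labelled as mouse skin was sequenced, with 1 library per treatment and stage. The libraries were made from total RNA with a NEBNext Ultra kit, per the labels' protocols, which does not mark strand. The deposited tables, 1 per stage, hold the authors' normalized signal per gene in both libraries of the stage, the authors' log2 fold change, and the authors' p-values and adjusted p-values. Per the submitters' processing notes the build was hg38, but the gene identifiers and coordinates are those of mouse GENCODE M21. For aligner and counter, names were not given in the sources used here.

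Each table was scaled separately. Every signal value equalled a constant plus a whole number of reads times a step, within 0.1 read for 100% of values, and reads were recovered from it. Within a stage, ratios were taken as log2(value + 2), with exact conditional binomial 95% intervals from the reads. These intervals cover counting error only. With 1 library per group, the error in the C-PC fit is how the C-PC difference varies between stages. In the stage fits it is how the stage difference varies between treatments. The p-values thus measure no spread between animals. Unlisted genes counted as 0, and genes with low reads were removed by the filterByExpr rule. limma 3.58.1 (trend, robust) was fitted over all genes that passed, with log2(value + 2) and stage as a block for C-PC, and with TMM log2 CPM (prior count 2) and treatment as a covariate for stage. edgeR 4.0.16, DESeq2 1.42.0, other scalings, pseudocounts and filters, and leaving out each pair of libraries were the alternatives. The fits were also run on simulated counts in which all libraries shared the same expression profile apart from the genes set to differ. Such counts lack the differences in tissue makeup seen between these libraries, so they do not show how the fits behave on them.

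The members, their classes and the gene lists were chosen with earlier results of these data known. Keratins reaching 5 CPM in a library (41) were named with values, and from other lists up to 4 genes per stage with the largest ratio at a mean of at least 5 CPM. Plec and Dst were named beside these because they moved against most filament partners. The marker lists for adipocytes, leukocytes, glands and mesothelium were summed as well, to 305 to 5183, 19.2 to 715, 0.407 to 3.17 and 0.126 to 11.1 CPM. Promoter windows came from RefSeq (GRCm38.p6).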

Additional observations from a re-analysis of the deposited data

Results flagged for a closer look

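The difference between C-PC and control ran in opposite directions at the middle and late stages, and with 1 library per group that difference was not tested. It did so for 28 keratins, lower with C-PC at the middle stage and higher at the late stage, and for 1 keratin, Krt222, the other way round. Summed over a class, the late minus the middle log2 ratio of C-PC over control was 25.9 for basal, 26.2 for wound-edge and 24.74 for inner root sheath keratins. It was 18.78 for hair shaft, 13.16 for suprabasal, 12.24 for companion layer and hair canal, and 5.02 for simple keratins. For mucosal and corneal keratins, which had few reads, it was 3.99, and for the class of other keratins -2.84. Krt222 gave all reads of that last class in middle C-PC and late control, but Krt90, with 79 reads, led it in late C-PC. Wound-edge keratins had 0 reads in both middle C-PC and late control, and basal and inner root sheath keratins had 0 and 2, and hair shaft keratins had 1 and 11. At such counts the sizes of these log2 values and their order depend on the pseudocount of 2, and they are no bound. The muscle genes moved against the keratins, with 6983 CPM in middle control, 103771 in middle C-PC, 100819 in late control and 1457 in late C-PC, and their part in the differences was not tested.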

How the results depend on the processing

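Scaling by total reads and pseudocounts of 0.5 or 8 kept each stage's number of keratins apart within 1.5 times, but requiring 50 reads left 0 at the early and 18 at the middle stage. The number called by limma was 0 under every alternative tried. DESeq2 called 13 keratins late against early, 2 late against middle and 15 middle against early, among 762, 10 and 78 of 16958 genes, and the cause was not tested. Of single genes, Krt20 at the early stage fell short of 2-fold with a pseudocount of 8 (log2 0.90), and so did Krt6a between late C-PC and middle control under total-read scaling. With Krt17 and Krt75 moved to the follicle classes, the wound-edge share was 28.2% in middle control and 0.388% in late C-PC, and in late C-PC the inner root sheath share was 60.2% and the hair shaft share 31.5%. Per kilobase, the wound-edge shares were 35.6% and 4.34%, the basal and suprabasal shares of middle control 43.8% and 18.2%, and the hair shaft share of late C-PC 29.4%. Taken from reads rather than reads per kilobase, Krt14 over Krt5 was 2.5 in middle control and 0.338 in late C-PC, Krt10 over Krt1 0.719 and 1.36, and Krt25 over Krt71 0.542 in late C-PC. Beyond the stage block of the C-PC fit, which without the block also called 0 keratins, no replicate number pairs the libraries. Outside middle control and late C-PC, 7 to 10 keratins per library had at least 10 reads.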

Other observations

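A gene outside the keratin names stood beside them. Gm49425 (chr15:101515920-101517261, minus strand, GRCm38), annotated as protein-coding and lying between Krt83 and Krt84 in the type II cluster, shares 19.9% of the 50-base stretches of Krt87. It had 26 reads in middle control, 0 in middle C-PC, 0 in late control and 14282 (838 CPM) in late C-PC, and it was not listed at the early stage.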
